A study of Mus musculus with 16 samples.

Results

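Caveolae are small flask-shaped pits of the plasma membrane, and 2 gene families build them. Caveolins are membrane-embedded scaffold proteins that bind cholesterol, and cavins are cytosolic coat proteins that assemble on caveolin domains and keep the pits in shape. In heart muscle the pits hold ion channels and receptors, take part in forming transverse tubules and buffer membrane tension. Cav3 and Cavin4 encode the members restricted to muscle, while Cav1, Cav2, Cavin1, Cavin2 and Cavin3 are made in many cell types, with Cav1 and Cavin2 prominent in endothelium. The 7 genes (3 caveolins and 4 cavins) were taken by symbol from the 37991 genes of the count table, where each matched 1 entry, and all 7 passed the filter on low counts in every comparison. Their identifiers are ENSMUSG00000007655 (Cav1), ENSMUSG00000000058 (Cav2), ENSMUSG00000062694 (Cav3), ENSMUSG00000004044 (Cavin1), ENSMUSG00000045954 (Cavin2), ENSMUSG00000037060 (Cavin3) and ENSMUSG00000028348 (Cavin4). In the GENCODE M21 annotation Cavin3 shares exon sequence with Gm45667, a gene the count table used here does not list, so reads of that gene cannot be told apart from those of Cavin3.

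The data are RNA-seq read counts of the left and right ventricles of 8 mouse embryos on a C57BL/6 background, 16 libraries in all. Hypoplastic left heart syndrome (HLHS), in which the left side of the heart is underdeveloped, was the phenotype of 3 embryos, and 5 littermates served as controls; the labels give no genotype for any embryo. Litters are named by embryonic day (E): the E13.5 litter gave 1 HLHS embryo and 1 control, while the E14.5 litter and the E17.5 litter gave 1 HLHS embryo and 2 controls apiece. Stage and litter are therefore 1 variable, HLHS replicates 1, 2 and 3 are the E13.5, E14.5 and E17.5 embryos, and control replicates 1 to 5 follow the same order.

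Total counts per library ran from 17081273 to 28648645. Behind the family's values lie 59 to 2102 reads per library for Cavin4, 296 to 2104 for Cav2, 779 to 1739 for Cavin3 and at least 1337 for each other member. The libraries held the markers of heart muscle, with Tnnt2, the cardiac troponin T gene, at 2214 CPM (read counts scaled to the library's total) or more in each, although Tnnc1, the troponin C gene of the same muscle, was near 0. Myod1, which defines skeletal muscle, the other tissue rich in Cav3 and Cavin4, was at 0 in all HLHS and all control left libraries and reached 0.154 CPM in control right libraries, and Myog reached 1.04 CPM. Whole ventricles were sequenced, so fewer cells of a type and less RNA per cell cannot be told apart.

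The promoters of the muscle pair are shown. Both genes were lower in HLHS on both sides, as was Cav1, whose promoter is not printed. The lines give the 250 bases before the RefSeq start in GRCm38.p6, 5′ to 3′ on the plus strand, chr4:48663264-48663513 for Cavin4 and chr6:112459255-112459504 for Cav3. Capitals mark matches to the E-box CANNTG, bound by basic helix-loop-helix factors, and to the TATA motif TATAAA.
Cavin4: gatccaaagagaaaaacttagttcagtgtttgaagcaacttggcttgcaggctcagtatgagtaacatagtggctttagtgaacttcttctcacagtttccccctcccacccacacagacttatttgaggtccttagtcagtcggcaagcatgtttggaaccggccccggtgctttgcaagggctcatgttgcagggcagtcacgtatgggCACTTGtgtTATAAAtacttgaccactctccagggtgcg
Cav3: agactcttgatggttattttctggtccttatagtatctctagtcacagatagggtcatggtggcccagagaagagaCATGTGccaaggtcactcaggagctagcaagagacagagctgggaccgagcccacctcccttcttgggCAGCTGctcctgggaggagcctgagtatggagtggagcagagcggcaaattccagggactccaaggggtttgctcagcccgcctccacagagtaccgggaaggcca

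Cavin4 had 1 E-box, starting 39 bases before its start, and the TATA motif at 30 bases before it. Cav3 had E-boxes at 174 and 106 bases before its start and no TATA motif in the window. Of 27025 promoters of the same length in the RefSeq table, 66.0% held an E-box and 3504 held TATAAA on either strand. Also searched on both strands were the M-CAT element CATTCC (12.6% of promoters), AGATAA (10.3%), the MEF2 site (3.01%) and the CArG box (1.40%), and none of these 4 had a match in either window. The table holds 6 of the 7 members, without Cavin3. Among its ubiquitous members, Cav1 had 1 E-box and 1 TATAAA match on either strand and Cav2 had 2 E-boxes. Cavin1 and Cavin2 had neither motif. The matches describe letters only.

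Cavin4, which encodes a coiled-coil cavin of cardiac and skeletal muscle that associates with CAV3, was the member with the largest log2 change in either HLHS ventricle. In HLHS right ventricles it had 3.17, 5.75 and 36.1 CPM at E13.5, E14.5 and E17.5. Control right ventricles had 16.9 CPM at E13.5, then 20.6 and 27.2 at E14.5, then 74.0 and 71.8 at E17.5. Each HLHS library was below its littermates, and the E14.5 value was also below that of the younger E13.5 control.

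In HLHS left ventricles Cavin4 had 6.81, 9.66 and 47.3 CPM at the same stages. Control left ventricles had 11.3 CPM at E13.5, then 21.1 and 21.6 CPM at E14.5, and 69.8 and 82.2 CPM at E17.5. Again each HLHS library was below its littermates and the E14.5 HLHS value was below the E13.5 control, but across all stages the groups overlapped on both sides. An E14.5 HLHS value below the E13.5 control was not particular to Cavin4. Cavin3 had it on both sides, Cav1 and Cavin2 on the left and Cavin1 on the right, while Cav3 and Cav2 had it on neither. For Cavin4 the fitted changes were as follows. The fitted change was −1.63 ± 0.22 on the log2 scale in the right ventricle (SE, 3 HLHS and 5 control libraries, adjusted p = 0.00676), a 3.09-fold lower level. In the left ventricle it was −0.85 ± 0.10, 1.80-fold lower (adjusted p = 0.0017; edgeR's quasi-likelihood test with litter as a term, Benjamini-Hochberg adjustment over all genes, here and below).

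By litter, the Cavin4 log2 difference of HLHS from the mean of its littermates in the right ventricle was −2.41 in the E13.5 litter, −2.04 in the E14.5 litter and −1.01 in the E17.5 litter. In the left ventricle it was −0.74, −1.14 and −0.68. The 2 littermate controls differed from each other by at most 0.40. With 1 HLHS embryo per stage, whether the difference changes with stage was not tested. Among all genes tested, 0.396% in the right ventricle and 4.79% in the left had a log2 change of at least this size.

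Cav3 encodes the muscle caveolin, whose human variants cause muscle disease and arrhythmia. It had 63.3, 109.8 and 126 CPM in HLHS left ventricles at E13.5, E14.5 and E17.5. Control left ventricles had 91.0 CPM at E13.5, then 138 and 137 CPM at E14.5, and 172 and 158 CPM at E17.5. In HLHS right ventricles it had 71.8, 109.5 and 128 CPM. Control right ventricles had 105 CPM at E13.5, then 124 and 146 CPM at E14.5, and 192 and 164 CPM at E17.5. Every HLHS library was below every littermate of its side. The fitted log2 change was −0.40 ± 0.05 in the left ventricle (adjusted p = 0.00285) and −0.43 ± 0.09 in the right (adjusted p = 0.0222), 1.32-fold and 1.35-fold lower.

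**Figure D1:**
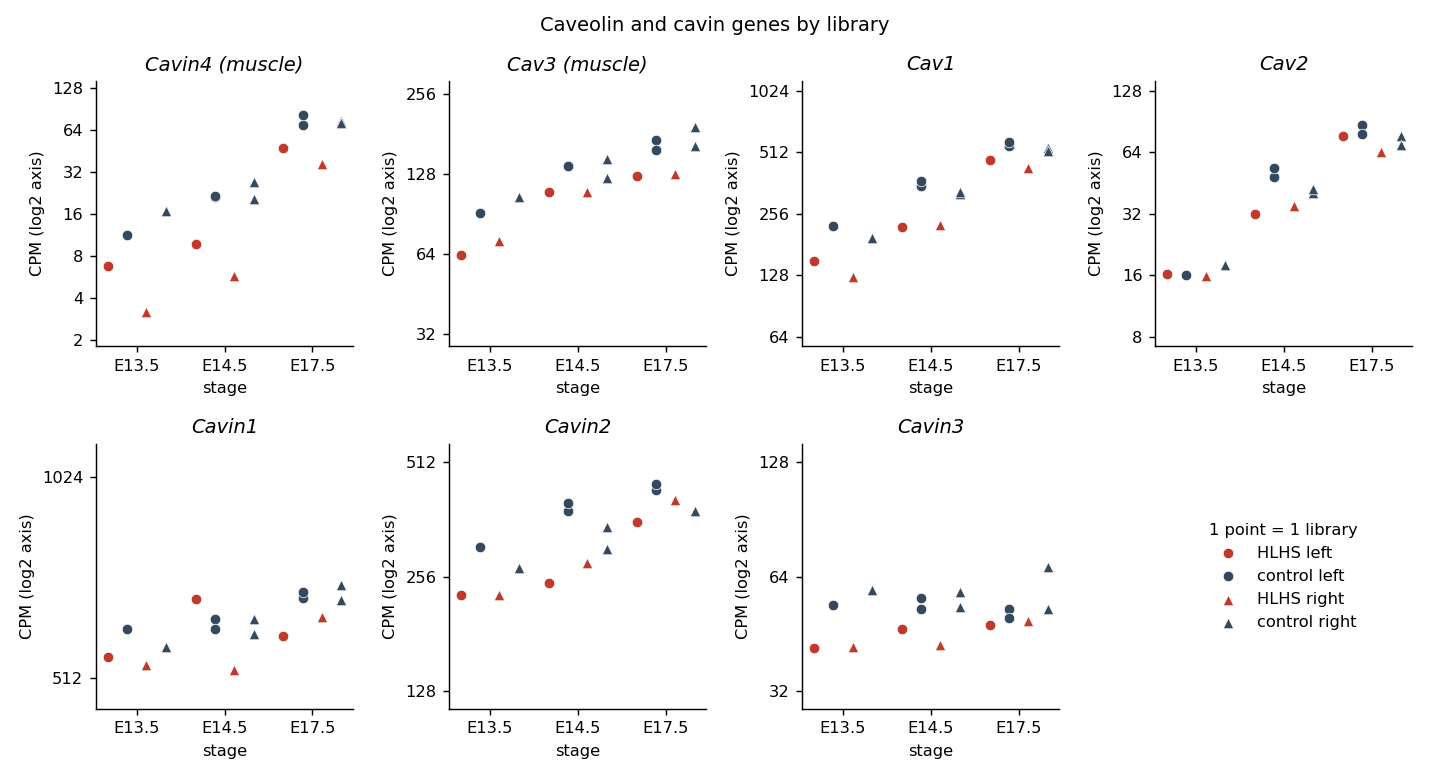
CPM of the 7 genes (log2 axis, scale set for each gene) by stage, with 1 point per library, HLHS in red and control in dark grey, left ventricles as circles and right ventricles as triangles. Cavin4 spans 3.17 to 82.2 CPM over the 16 libraries, and its HLHS points lie under the control points of the same stage and side.

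Cav1 was the ubiquitous member lower on both sides. It encodes the principal caveolin of endothelium, smooth muscle and fibroblasts. HLHS left ventricles had 149.9, 219.8 and 472 CPM at E13.5, E14.5 and E17.5, against 223 CPM, then 352 and 370.1 CPM, then 553 and 573 CPM in control left ventricles. HLHS right ventricles had 125, 225 and 427 CPM, against 194 CPM, then 319.6 and 328 CPM, then 537 and 521 CPM in control right ventricles. All 6 HLHS libraries were below their littermates, and on the log2 scale the difference was smallest at E17.5 on both sides. The log2 change was −0.50 ± 0.08 in the left ventricle (adjusted p = 0.00669) and −0.47 ± 0.08 in the right (adjusted p = 0.0103), 1.41-fold and 1.38-fold lower.

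Cav2 encodes a caveolin that depends on CAV1 to reach the cell surface, and it did not pass on either side. Without a count filter it passed on the left (adjusted p = 0.0317). At E13.5 it had 16.2 CPM in the HLHS left ventricle and 16.0 CPM in the control one. At E14.5 the HLHS left ventricle had 31.9 CPM, against 48.6 and 53.5 CPM in controls. The log2 change was −0.28 ± 0.12 in the left ventricle (adjusted p = 0.155) and −0.21 ± 0.07 in the right (adjusted p = 0.123). The left value was −0.058 without HLHS replicate 2, the E14.5 embryo. Cav2 and Cav1 are neighbours on chromosome 6 of the reference annotation.

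Cavin1 encodes the cavin without which caveolae do not form, and it had the smallest log2 change in the left ventricle. HLHS left ventricles had 551, 672 and 592 CPM at E13.5, E14.5 and E17.5. Control left ventricles had 607 CPM at E13.5, then 627 and 605 CPM at E14.5, and 675 and 689 CPM at E17.5. The E14.5 HLHS library was above its littermates and the others were below theirs. The log2 change was −0.06 ± 0.07 in the left ventricle (adjusted p = 0.634) and −0.14 ± 0.07 in the right (adjusted p = 0.266), so a change was not shown at this precision.

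Cavin2 encodes a membrane-curving cavin abundant in endothelium. HLHS left ventricles had 229.8, 246 and 356 CPM at E13.5, E14.5 and E17.5. Control left ventricles had 306 CPM, then 381 and 399.5 CPM, then 432 and 449 CPM at those stages. Each HLHS left library was below its littermates, and the log2 change was −0.46 ± 0.07 (adjusted p = 0.0055), 1.38-fold lower. In the right ventricle the E17.5 HLHS library, at 408 CPM, was above both of its littermates, at 382 CPM each. The right log2 change was −0.10 ± 0.08 (adjusted p = 0.504).

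Cavin3 encodes a cavin first known as a binding partner of protein kinase C delta, and it was called on the right. HLHS right ventricles had 41.8, 42.4 and 49.0 CPM at E13.5, E14.5 and E17.5. Control right ventricles had 59.1 CPM at E13.5, then 53.3 and 58.3 CPM at E14.5, and 67.8 and 52.6 CPM at E17.5. The HLHS and control values did not overlap across stages. The log2 change was −0.38 ± 0.10 in the right ventricle (adjusted p = 0.0451). In the left ventricle it was −0.21 ± 0.07 (adjusted p = 0.0685), with HLHS at 41.7 to 47.8 CPM and controls at 49.9 to 56.4 CPM, again without overlap. The share of all genes without overlap between such small groups was not counted.

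In each ventricle 4 of the 7 members were lower in HLHS and 0 were higher. In the left ventricle these were Cavin4, Cav3, Cav1 and Cavin2, where 6.61% of all 15979 genes tested were called lower, 6.17% higher and 12.8% were called in either direction. In the right ventricle they were Cavin4, Cav3, Cav1 and Cavin3, where 3.05% of 16142 genes were called lower, 3.56% higher and 6.61% in either direction. The median log2 change of the 7 was −0.40 in the left ventricle and −0.38 in the right, and that of all genes tested 0.01 on both sides. Both muscle members were called on both sides, and of the 5 ubiquitous members 2 were called on each side.

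**Figure D2:**
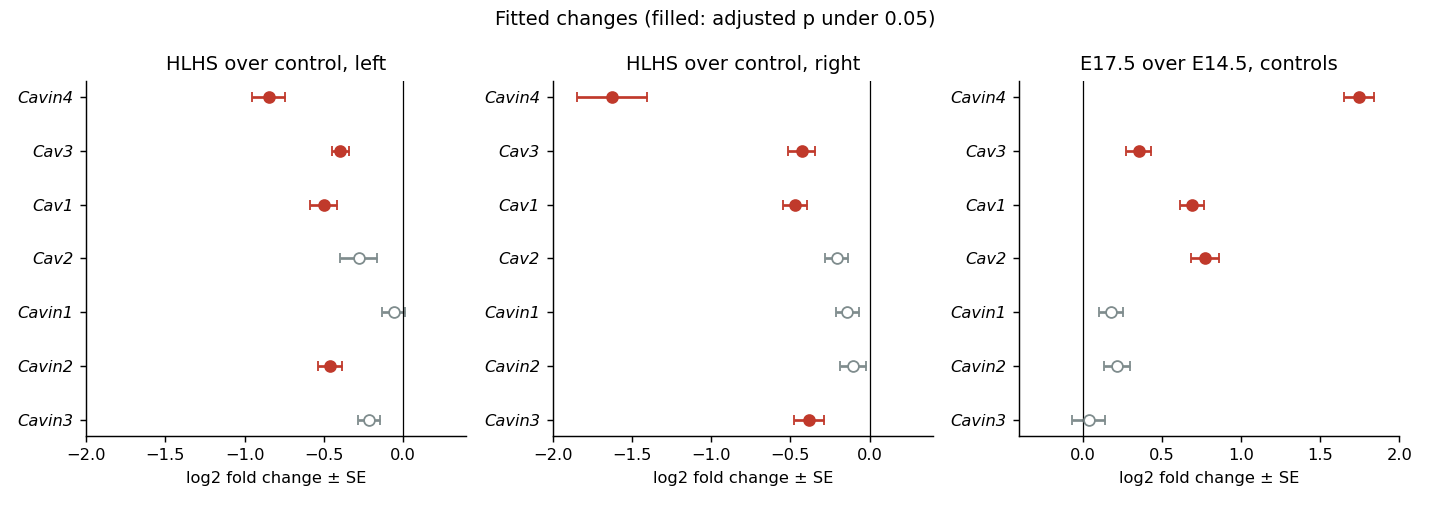
Log2 fold changes with standard errors of the 7 genes for HLHS over control in the left ventricle, HLHS over control in the right ventricle, and E17.5 over E14.5 in controls. Filled red points passed an adjusted p of 0.05 in edgeR's quasi-likelihood test, open grey points did not; Cavin4 lies farthest from 0 in each panel.

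The calls of Cavin4, Cav3, Cav1 and Cavin2 in the left ventricle held in each of the 8 fits that leave out 1 embryo. These are not 8 separate checks. The E13.5 litter has 1 HLHS embryo and 1 control, so leaving out either takes that litter out of the comparison. The fits without control replicate 1 and without HLHS replicate 1 are therefore nearly the same fit. In the right ventricle Cavin4 held in 8 of 8, with an adjusted p of at most 0.0392, whereas the other calls passed or missed the threshold with the embryo left out. Their log2 changes stayed near the full fit, at −0.56 to −0.41 for Cav1, −0.51 to −0.38 for Cav3 and −0.45 to −0.33 for Cavin3. Cav1 missed the threshold without control replicate 1 (adjusted p = 0.0659), HLHS replicate 1 (0.0647) or HLHS replicate 2 (0.0595). Cav3 missed it without control replicate 1 (0.11), control replicate 3 (0.0589), HLHS replicate 1 (0.111), HLHS replicate 2 (0.0517) or HLHS replicate 3 (0.105). Cavin3 missed it without control replicates 1 (0.175), 3 (0.104) or 4 (0.0636), or HLHS replicates 1 (0.178), 2 (0.142) or 3 (0.106). Litter as a term is needed for every one of these calls: without it, 0 of the 7 passed on either side in edgeR, and 2 members in the left and 1 in the right ventricle had an unadjusted p under 0.05. The log2 changes without it were −0.96 for Cavin4, −0.48 for Cav3, −0.56 for Cav1 and −0.50 for Cavin2 on the left. On the right they were −1.48 for Cavin4, −0.50 for Cav3, −0.55 for Cav1 and −0.39 for Cavin3.

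Ratios of members within a library do not depend on the scaling of libraries, and they show Cavin4 apart from Cav3. For the mean log2 level of the muscle members relative to that of the ubiquitous members, HLHS minus littermates was −1.15, −0.85 and −0.58 in the right ventricle over the E13.5, E14.5 and E17.5 litters. In the left ventricle it was −0.33, −0.30 and −0.34, and littermate controls differed from each other by at most 0.22 on either side. For the log2 ratio of Cavin4 to Cav3 it was −1.86, −1.74 and −0.54 on the right and −0.21, −0.82 and −0.29 on the left. Cavin4 was thus lower relative to Cav3 in every litter and on both sides. The log2 ratio of Cav3 to Cav1 had no single direction, with HLHS minus littermates at 0.05, 0.39 and −0.13 on the left and 0.08, 0.22 and −0.16 on the right. At E17.5 the 2 left controls differed by 0.36 in the Cavin4 to Cav3 ratio, more than the 0.29 between HLHS and controls.

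Markers of other cells moved with these groups in part. Of 14 endothelial and endocardial markers, 5 were lower and 2 higher in HLHS left ventricles, with a median log2 change of −0.23. Of all genes, 6.61% were called lower there and 6.17% higher. Among the 5 lower were Cldn5, a tight junction gene (log2 change −1.08 ± 0.09), and Cdh5, an adhesion gene of endothelium (−0.27 ± 0.07). The 2 higher genes are not reported here by name. The summed level of the 14 ran from 1497 to 1918 CPM in HLHS left ventricles and from 1813 to 2027 CPM in control left ventricles. On the right it ran from 1806 to 2174 CPM in HLHS and from 1993 to 2174 CPM in controls. There 1 of 14 was lower, where 3.05% of all genes were called lower. No marker of this list was at 0 in any of the 4 groups.

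Of 13 heart muscle markers tested, 3 were lower on the left, with Tnni3, the cardiac troponin I gene, at −0.52 ± 0.07. On the right 2 were lower, with Ryr2, the calcium release channel gene, at −0.40 ± 0.09. The median log2 change of the 13 was −0.048 on the left and −0.27 on the right. In edgeR's quasi-likelihood test 4 on the left and 11 on the right had an unadjusted p under 0.05. So did 4599 of 15979 genes on the left and 3795 of 16142 on the right. Of all genes, 6.61% were called lower on the left and 3.05% on the right. DESeq2 called 4 markers lower on the left and 8 on the right, where it called 1079 of 15979 and 637 of 16142 genes lower. For limma-voom it was 4 markers on the left and 3 on the right, with 1049 and 480 genes lower among the same totals. The summed heart muscle level was 30660 to 34940 CPM in HLHS and 27880 to 41850 CPM in control left ventricles. On the right it was 27290 to 36730 CPM in HLHS and 32640 to 44930 CPM in controls. By stage, over both ventricles, the heart muscle sum was 34940 to 36730 CPM in HLHS and 38900 to 44070 CPM in controls at E13.5. At E14.5 it was 27290 to 30660 CPM in HLHS and 27880 to 34520 CPM in controls, and at E17.5 34870 to 35860 CPM in HLHS and 40280 to 44930 CPM in controls. At E13.5 and E17.5 the heart muscle sum was thus lower in every HLHS library than in any control of that stage. Cavin4 and Cav3 were lower than littermates within each side at all stages. At E14.5 the sums overlapped over both ventricles, but not within the right one. There the E14.5 HLHS sum was 27290 CPM, and every control right library had at least 32640 CPM. On the left the E14.5 HLHS sum, 30660 CPM, was above the lowest E14.5 control, at 27880 CPM.

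Smooth muscle and pericyte markers split in the left ventricle, with 3 of 10 higher and 3 lower in HLHS and a median log2 change of 0.0045. Of all genes, 6.17% were called higher and 6.61% lower on the left, and 3.56% higher and 3.05% lower on the right. The smooth muscle and pericyte sum was 2310 to 3447 CPM in HLHS and 1973 to 2252 CPM in control left ventricles. In right ventricles it was 1942 to 2481 CPM in HLHS and 1928 to 2338 CPM in controls. Of 10 fibroblast and mesenchyme markers, 4 were lower and 0 higher in HLHS left ventricles (median log2 change −0.25), and 1 was higher and 0 lower in right ventricles (median 0.35). DESeq2 called 6 lower and 1 higher on the left, where it called 1079 of 15979 genes lower and 1003 higher. On the right it called 5 higher, where it called 699 of 16142 genes higher. The fibroblast sum was 5164 to 5739 CPM in HLHS and 5536 to 6729 CPM in control left ventricles. In right ventricles it was 6549 to 8348 CPM in HLHS and 4010 to 7313 CPM in controls, with overlap on both sides. Red blood cell markers had 10 of 11 higher in HLHS left ventricles, where they summed to 749.5 to 1345 CPM, against 467 to 831 CPM in controls. With these genes left out, the same number of members, 4, was called on each side. The part of these markers in the caveolar genes' differences was not tested.

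The sides of the heart were compared within embryos. In controls Cavin2 was the member that differed, 1.17-fold higher in the left than in the right ventricle, with a log2 difference of 0.23 ± 0.05 (SE, 5 embryos, adjusted p = 0.021) and left above right in 5 of 5 embryos. Among all genes, 2.09% of 16238 were called higher on the left, 4.01% lower and 6.10% in either direction, against 1 of the 7. The call was lost without control replicate 3 (adjusted p = 0.0629) or control replicate 5 (0.0826). Cav1 was higher on the left in 5 of 5 control embryos and Cavin3 lower in 5 of 5, and neither passed (0.14 ± 0.05, adjusted p = 0.117, and −0.13 ± 0.06, adjusted p = 0.245). Cavin4, at −0.11 ± 0.09, was higher on the left in 2 of 5 and lower in 3.

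In HLHS hearts Cavin4 was the member that differed, 1.63-fold higher in the left than in the right ventricle (log2 difference 0.71 ± 0.15, SE, 3 embryos, adjusted p = 0.0341). In the E13.5, E14.5 and E17.5 HLHS embryos left minus right was 1.10, 0.75 and 0.39. It was −0.57 in the E13.5 control, 0.03 and −0.33 in the E14.5 controls and −0.09 and 0.19 in the E17.5 controls, so the 3 HLHS embryos lay above all 5 controls. Among all genes, 1.15% of 15771 were called higher on the left, 2.89% lower and 4.04% in either direction. The call was lost without HLHS replicate 1 (adjusted p = 0.0831) or 2 (0.137), in limma-voom (0.0593) and when only genes reaching 1 CPM in 3 or more libraries were kept (0.053). Cavin2, the member higher on the left in controls, had left minus right values of 0.01, −0.18 and −0.20 in HLHS hearts and of 0.18 to 0.33 in controls, again without overlap. How many of all genes have left minus right values without overlap was not counted.

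A direct test set the HLHS effect of the left ventricle minus that of the right, and 0 of the 7 members passed in edgeR's quasi-likelihood test, where 3 of 16508 genes (0.0182%) did. Cavin4 had a difference of 0.77 ± 0.19 (SE, 8 embryos, unadjusted p = 0.00136, adjusted p = 0.177), its HLHS level being less reduced on the left. Cavin2 had −0.35 ± 0.08 (unadjusted p = 0.00124, adjusted p = 0.177), more reduced on the left. These were the 2 members with an unadjusted p under 0.05. Both passed in DESeq2 (adjusted p = 0.00685 for Cavin4 and 0.0175 for Cavin2), Cavin4 passed without a count filter (0.0123), and neither passed in limma-voom. Cav1 and Cav3 had −0.02 ± 0.09 and 0.01 ± 0.09, and the other members lay between −0.12 and 0.16.

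**Figure D3:**
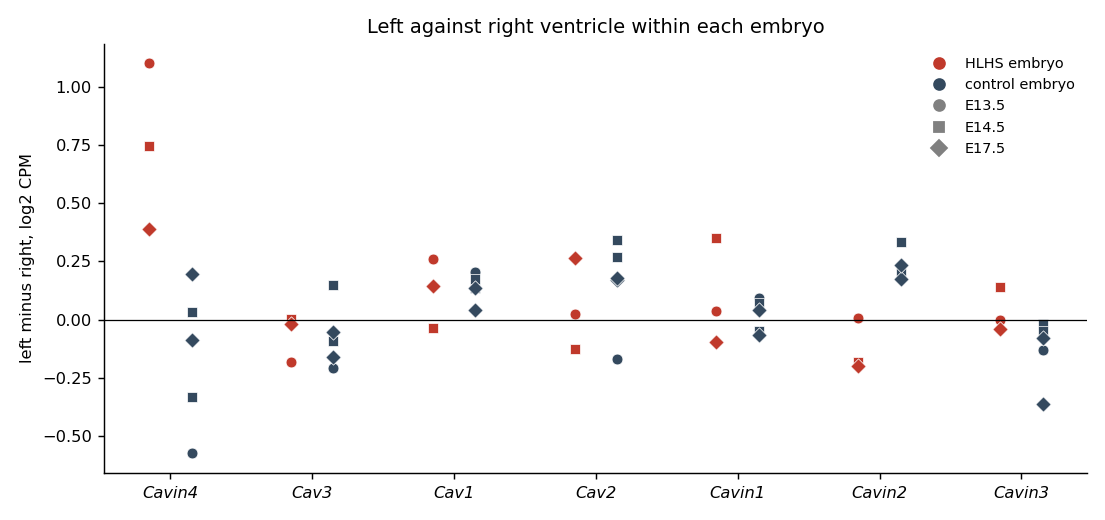
Left minus right ventricle in log2 CPM for each gene, 1 point per embryo, HLHS embryos in red to the left of control embryos in dark grey, with the marker shape giving the stage. Cavin4 lies at 0.39 to 1.10 in HLHS and at −0.57 to 0.19 in control embryos, and Cavin2 at −0.20 to 0.01 in HLHS and at 0.18 to 0.33 in controls.

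Between stages, Cavin4 changed most of the 7 in control hearts. With both ventricles of an embryo summed, E17.5 exceeded E14.5 by 1.75 ± 0.10 on the log2 scale, 3.35-fold (SE, 2 embryos per stage, adjusted p = 3.81e-04). Cav2 rose by 0.77 ± 0.09 (adjusted p = 0.00201), Cav1 by 0.69 ± 0.07 (0.00187) and Cav3 by 0.35 ± 0.08 (0.0191). Cavin1, Cavin2 and Cavin3 had log2 changes of 0.18 ± 0.08, 0.22 ± 0.08 and 0.04 ± 0.10 and did not pass (adjusted p = 0.115, 0.0845 and 0.798). Thus 4 of the 7 rose and 0 fell, where 15.8% of 16823 genes were called higher, 14.1% lower and 30.0% were called in either direction. Stage and litter cannot be told apart here, and Cav3 missed the threshold in right ventricles alone (0.41, adjusted p = 0.0538).

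The single HLHS embryos of these stages had the same direction for Cavin4, with E17.5 over E14.5 at 2.29 in the left and 2.65 in the right ventricle on the log2 scale, against 1.83 and 1.62 in controls. For Cav1 it was 1.10 and 0.93 in HLHS, against 0.64 and 0.71 in controls, and for Cav3 0.20 and 0.22 in HLHS, against 0.26 and 0.39. These differences between single embryos have no replicate check. The HLHS and the stage comparisons share the E14.5 and E17.5 control libraries, so their values are not independent.

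Levels of different members can be set side by side per kb of exon, using exon lengths of GENCODE M21 (1157 bases for Cav3 to 3587 for Cavin1), as the authors' own gene models are not named in the labels. Cavin1 was the highest member in both phenotypes at every stage, with 152, 167 and 171 CPM per kb in HLHS hearts at E13.5, E14.5 and E17.5, against 164, 171 and 191 in controls. Cav3, Cav1 and Cavin2 followed in both phenotypes, and their order changed with stage. In HLHS hearts Cav3 exceeded Cav1 at E14.5 (94.8 against 64.6 CPM per kb) and lay below it at E17.5 (109.7 against 131). In each E14.5 control library Cav3 exceeded Cav1, at 119.1 against 102.1, 118.8 against 107.5, 107.3 against 92.8 and 126.5 against 95.2 CPM per kb. At E17.5 the order differed between control libraries. Cav3 was at 148.7, 136.3, 166.0 and 141.3 CPM per kb, against 160.5, 166.5, 156.0 and 151.4 for Cav1.

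Cavin4 was the lowest of the 7 in HLHS hearts at each stage, at 2.43, 3.75 and 20.3 CPM per kb. At E17.5 Cavin4 and Cav2 lay close in HLHS, at 23.0 against 23.1 CPM per kb in the left library and 17.6 against 19.2 in the right. With 1 HLHS embryo at that stage, the lowest place there has no replicate check. In controls it had 6.88, 11.02 and 36.2 CPM per kb and took places 6, 7 and 5 in the order. The control ranges of Cavin4 (33.98 to 40.03) and Cavin3 (30.0 to 40.8) at E17.5 overlapped, as did those of Cavin4 (10.03 to 13.2) and Cav2 (12.1 to 16.0) at E14.5. As a share of the summed cavin level per kb, Cavin4 made up 0.951%, 1.31% and 5.91% in HLHS hearts at E13.5, E14.5 and E17.5, against 2.31%, 3.32% and 9.16% in controls. Cav3 made up 56.6%, 56.0% and 42.0% of the summed caveolin level per kb in HLHS hearts, against 56.3%, 51.0% and 44.8% in controls.

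**Figure D4:**
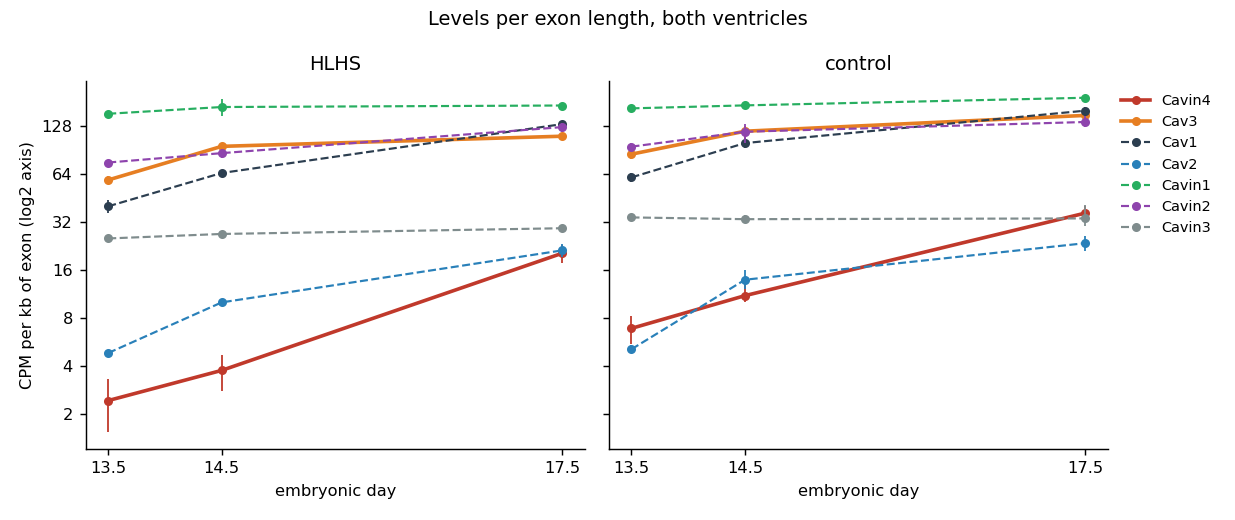
Mean level per kb of exon (CPM per kb, log2 axis) of the 7 genes by embryonic day over both ventricles, in HLHS (left panel) and control hearts (right panel), with vertical lines from the lowest to the highest library. Solid lines are the muscle members; Cavin4 reaches 20.3 in HLHS and 36.2 in control hearts at E17.5, while Cavin1 stays highest at 171 and 191.

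Other proteins of the caveola neck and coat were counted from a list of 10 genes. In HLHS left ventricles 3 of the 10 were lower and 0 higher, where 6.61% of all genes were called lower and 6.17% higher, with a median log2 change of 0.06. They were Ehd2, which encodes the ATPase that stabilises the caveola neck (−0.48 ± 0.08), Pacsin2, which encodes a membrane-bending F-BAR protein (−0.20 ± 0.05), and Pacsin1, its neuronal relative (−1.92 ± 0.44). Pacsin1 had the largest SE of these, and in each of the 4 groups 1 gene of the list had a mean under 1 CPM. In DESeq2 the same list had 2 lower and 1 higher, where 1079 of 15979 genes were called lower and 1003 higher. In limma-voom it had 2 lower and 0 higher, where 1049 genes were called lower and 996 higher. In the right ventricle 0 of 10 passed in edgeR, and 3 had an unadjusted p under 0.05. There DESeq2 and limma-voom each called 1 lower, where they called 637 and 480 of 16142 genes lower. At E17.5 relative to E14.5 in controls, 6 rose and 1 fell, where 15.8% of all genes were called higher and 14.1% lower, among them Ehd4 (0.62 ± 0.10) and Ehd2 (0.42 ± 0.07), while Src, a kinase that phosphorylates CAV1, fell by 0.76 ± 0.11.

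Of 19 tested genes for CAV3 partners, transverse tubules and the dystrophin complex, 4 were lower in HLHS left ventricles and 2 in right ventricles, with 0 higher on either side and medians of 0.02 and −0.11. Of all genes, 6.61% were called lower on the left and 3.05% on the right. DESeq2 called 4 of the 19 lower and 1 higher on the left and 4 lower on the right. It called 1079 of 15979 genes lower and 1003 higher on the left and 637 of 16142 lower on the right. For limma-voom it was 4 lower on the left and 3 on the right, with 1049 and 480 genes lower among the same totals. Ank2, the gene of the membrane anchor ankyrin B, was lower on both sides (−0.39 ± 0.06 left, −0.30 ± 0.07 right). The sarcoglycan genes Sgca (−0.43 ± 0.07) and Sgcb (−0.28 ± 0.06) and Popdc2 (−0.30 ± 0.08), a cyclic AMP-binding membrane protein gene, were lower on the left. Bves, the relative of Popdc2 whose product binds CAV3, was lower on the right (−0.29 ± 0.06). Between stages 9 of 19 rose and 0 fell in controls (median 0.33), where 15.8% of all genes were called higher and 30.0% in either direction, with Trim72, a membrane repair gene whose product binds CAV3, at 0.96 ± 0.12.

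Of 18 genes for kinases and receptors found in caveolae, 3 were higher and 1 lower in HLHS left ventricles, where 6.17% of all genes were called higher and 6.61% lower. DESeq2 called 4 higher and 2 lower on the left, and 2 higher and 1 lower on the right. Of all genes it called 1003 of 15979 higher and 1079 lower on the left. On the right these were 699 of 16142 higher and 637 lower. Prkcd, which encodes protein kinase C delta, the binding partner of CAVIN3, was higher on both sides (0.39 ± 0.06 left, 0.38 ± 0.06 right) and was the 1 gene of the list called on the right in edgeR, where 3.56% of all genes were called higher. Tgfbr1, a TGF-beta receptor gene, had 0.38 ± 0.10 and Insr, the insulin receptor gene, 0.20 ± 0.05 on the left, where Adrb1, the beta-1 adrenergic receptor gene, was lower (−0.46 ± 0.12). In controls Nos3, the endothelial nitric oxide synthase gene, was lower on the left than on the right (−0.34 ± 0.05). Of 9 tested genes for flotillins and cholesterol supply, 1 was higher in HLHS left ventricles, the sterol synthesis gene Sqle (0.41 ± 0.09). In the right ventricle 0 of these 9 passed in edgeR, DESeq2 or limma-voom, and 0 had an unadjusted p under 0.05 in edgeR.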

How the data were processed

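The authors deposited 1 table of raw counts, whole numbers of reads for each gene and library. Per the submitters' processing notes, the build was mm9, and HTSeq 0.5.4p5, TopHat2 2.0.9, edgeR 3.4.2 and Picard were used, in no stated order; strand, duplicates and annotation: not given in the sources used here. Symbols were found for 32919 of 37991 genes. Reads carry no molecular identifiers, so depth describes counting error only.

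Tests used edgeR 4.0.16 in R 4.3.3: genes kept by filterByExpr (minimum count 10, total 15), scaled by TMM and fitted by quasi-likelihood, with p-values adjusted after Benjamini-Hochberg over all genes kept (threshold 0.05). Each ventricle's HLHS comparison had stage as a term; side tests and the left minus right effect had the embryo as a block; E17.5 and E14.5 were set against each other on counts summed per embryo. Per the labels, both ventricles come from 1 embryo. The difference between littermate controls correlated between sides across 16508 genes (r = 0.324 at E14.5, 0.299 at E17.5). No 2 libraries of a group were within sampling noise of each other (lowest chi-square per degree of freedom 7.51, 26 pairs). Levels are CPM with TMM factors; log2 CPM used a prior count of 0.5.

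The 7 genes and the lists were chosen with earlier results of these data known. All 7 are named whatever their values; from each list up to 4 genes past the threshold with the smallest p may be named. Some genes of the lists are counted but not reported here by name. The alternatives swapped in DESeq2's size factors, DESeq2 1.42.0 or limma-voom (limma 3.58.1), changed the count filter, dropped red blood cell genes or 1 embryo at a time, removed the block, pooled all 16 libraries, summed ventricles, took a single side, or took stage as a number. Fits were tested on simulated data. P-values measure the spread between these embryos.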

Additional observations from a re-analysis of the deposited data

How the results depend on the processing

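Without stage as a replicate block, 0 of the 7 genes passed in either ventricle, against 4 in each with it (1 and 0 genes of all tested, against 2043 and 1067). In edgeR's quasi-likelihood test without a count filter, 6 passed on the left, Cav2 (adjusted p = 0.0317) and Cavin3 (0.0461) among them. Of all genes, 2718 of 24764 passed in that fit, 1488 of them lower. With ventricles summed per embryo 5 passed, Cavin2 (0.0286) and Cavin3 (0.0254) among them, where 2401 of 17429 genes passed, 1207 of them lower. In the left minus right test of the HLHS effect, 2 members passed in DESeq2 and 1 without a count filter, against 0. In HLHS sides, 0 passed in limma-voom and 0 with at least 1 CPM in 3 libraries, against 1; 1 member had an unadjusted p under 0.05 in limma-voom. The replicate block of embryo against stage changed no call of a member in control sides or in the left minus right effect. In HLHS sides each embryo is the only one of its stage, so the fits are identical and could not differ. Leaving out 1 embryo gave 4 to 5 members called in the left ventricle, 1 to 4 in the right, 0 to 2 in control sides, 0 to 1 in HLHS sides and 4 in each stage fit. It gave 845 to 2309, 195 to 1518, 0 to 135, 486 to 883 and 270 to 1117 genes of all tested in the left, the right, the left minus right effect, control sides and HLHS sides, against 2043, 1067, 3, 990 and 637. Other counts of all genes over 1.5 times away were 1720 (no count filter) and 2401 (summed ventricles) against 1067 on the right; 132 (DESeq2), 5 (limma-voom), 217 (no count filter) and 9 (no replicate block) against 3; 1570 and 1309 (no count filter) against 990 in control and 637 in HLHS sides; and 2905 (right ventricles only) against 5043 between stages. Directions turned only for members that did not pass: Cav3 at −0.0043 in the left minus right effect without a count filter, and Cavin3 at −0.085 between stages in left ventricles only. Leaving out 1 embryo, Cavin1 ran from −0.17 to 0.024 in the left ventricle; Cav3 from −0.028 to 0.069, Cav1 from −0.080 to 0.061 and Cavin1 from −0.049 to 0.17 in the left minus right effect; Cav3 from −0.084 to 0.0060, Cavin1 from −0.016 to 0.22, Cavin3 from −0.0083 to 0.091 and Cav2 from −0.034 to 0.17 in HLHS sides; and Cavin3 from −0.094 to 0.16 between stages. The causes were not tested. In the right ventricle, Cavin4 stayed between −2.17 and −1.42 over the 8 fits. With 1 HLHS embryo per stage, effects within a stage have no replicate check.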

Other observations

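The genes whose values most resembled each member were sought among 10203 genes with a mean log2 CPM of at least 3, by Pearson r over the 16 libraries after subtracting the mean of the libraries of the same stage and side. The r are descriptions without a test: the libraries share embryos and the E13.5 means rest on 1 HLHS and 1 control library each. For Cavin4 the highest were Coro6, a coronin gene (r = 0.983), Mcf2l (0.974) and Adora1, the adenosine A1 receptor gene (0.965). For Cav3 they were Nudt3 (0.985), Nfyc (0.984) and Cox6a2, the muscle subunit gene of cytochrome c oxidase (0.982). For Cav1 they were Pik3r6 (0.994), Adhfe1 (0.988) and Slc4a3, a chloride-bicarbonate exchanger gene (0.986). For Cavin1 the highest was Actc1, the cardiac actin gene (0.944), for Cavin2 Bcl2l2 (0.965), for Cavin3 Ctdsp1 (0.968) and for Cav2 Las1l (0.939). The subtraction leaves the difference of HLHS from control in the values. Without it, the r of each member's first gene ran from 0.279 (Las1l with Cav2) to 0.982 (Nudt3 with Cav3).

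After the same subtraction, within the family, Cav3 and Cavin3 (r = 0.917) and Cav1 and Cavin4 (0.913) resembled each other most, and Cav2 and Cavin1 least (0.0851). Cavin4 with Cav3, the muscle pair, had 0.85, and Cav1 with Cav2, the chromosomal neighbours, 0.80. Without the subtraction the order was another, with Cav1 and Cav2 highest (0.955), Cav3 and Cavin3 at 0.671 and Cav2 and Cavin1 at 0.69.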
